A study of Homo sapiens and Homo sapiens
Mus with 12 samples.

Results

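The 9 genes described here carry peptides to the cell surface on MHC class I molecules: the heavy chains HLA-B, HLA-C and HLA-E, the light chain B2M, the peptide transporter subunits TAP1 and TAP2, the loading chaperone TAPBP (tapasin), the peptide trimming enzyme ERAP1 and the class I transactivator NLRC5. They were taken by gene name from the count table of cultured cells and from the human count table of xenograft tumors, and all 9 were listed in both. The low-count filter left 8 of the 9 in each system, among 9859 of 21466 listed genes in cells and 9184 of 26813 in tumors. NLRC5 was the member below the filter in cells, and TAP1 the member below it in tumors.

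MHC class I molecules display peptides from inside the cell to CD8+ T cells, and natural killer cells read HLA-E and the loss of class I. The proteasome and cytosolic peptidases cut proteins to peptides, TAP1 and TAP2 pump these into the endoplasmic reticulum, ERAP1 trims them, and tapasin helps load them on a heavy chain paired with B2M. Interferon-gamma and NLRC5 raise transcription of these genes, and tumor cells often carry less class I at their surface than the tissue they came from.

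UM-UC-3 is an advanced bladder cancer cell line. RNA-seq was made of cells precultured for 24 h, with 3 libraries for shCtrl, for sh#1 and for sh#2, and of 5 xenograft tumors of each of these 3 groups, taken 4 weeks after subcutaneous injection in Matrigel into 5-week-old nude mice. The sh#1 and sh#2 cells carried different hairpins against CDH11 (cadherin 11) and are together called CDH11 KD, and the shCtrl cells, labelled WT, carried a non-silencing hairpin. All 3 groups carried a lentiviral GFP vector and were sorted for GFP as populations, not clones. The hosts were BALB/cAJcl-nu/nu males, which lack a thymus and mature T cells and keep natural killer cells and macrophages. Nothing in the labels says that libraries of a group came from separate cultures or that each tumor came from its own mouse, so p-values measure the spread between these libraries, which may in part be technical.

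Gene totals ranged from 2273182 to 2777019 counts per cell library, and in tumors from 414849 to 1248977 human and from 94406 to 220238 mouse counts. The targeted gene had few counts. CDH11 had 2 to 4 counts in shCtrl cells, at most 1 with sh#1 and at most 2 with sh#2, below the filter. In tumors its counts were 5 to 32 with shCtrl, 1 to 9 with sh#1 and 2 to 14 with sh#2. Quasi-likelihood tests in edgeR, with Benjamini-Hochberg adjusted p given as q, put the log2 fold change at -1.67 in sh#1 (q = 0.026) and at -0.73 in sh#2 (q = 0.347). The deposited barcode list placed each tumor group in its own library mix, so that mix and group cannot be told apart in any tumor comparison. The summed level of 6 epithelial and mesenchymal markers was 2416 to 2608 normalized CPM with shCtrl. It was 2601 to 2797 with sh#1 and 4230 to 4640 with sh#2. Most of it was VIM (vimentin), with means of 2237, 2365 and 4080. VIM was higher in sh#2 (by 0.87 on the log2 scale, edgeR q = 1.91e-19), and KRT7, KRT8, KRT18 and CDH2 were not called there. With library totals in place of TMM scaling, CDH2 was lower in sh#2 (-0.498, q = 0.00376). In sh#1, KRT18 was higher (0.54, q = 2.68e-07) and CDH2 lower (-0.58, q = 0.00207). The part of the VIM shift in the class I values of sh#2 cells was not tested. Of 7 markers of human immune and antigen presenting cells, 0 passed the filter in either system, and 5 of the 7 were listed in tumors. In cells their summed level was 0.762 to 2.36 normalized CPM with shCtrl, 0.705 to 4.51 with sh#1 and 0.467 to 1.46 with sh#2. In tumors it was 0 to 10.7 with shCtrl, 2.77 to 9.04 with sh#1 and 4.79 to 9.55 with sh#2 (medians 2.41, 3.26 and 7.47), from at most 8 counts a tumor.

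Of the 9 genes, 6 lie on the short arm of chromosome 6 in the MHC region in hg38 with GENCODE 44 positions: HLA-E (chr6:30489509-30494194, plus strand), HLA-C (chr6:31268749-31272130, minus strand), HLA-B (chr6:31353872-31367067, minus strand), TAP2 (chr6:32821833-32838739, minus strand), TAP1 (chr6:32845209-32853816, minus strand) and TAPBP (chr6:33299694-33314284, minus strand). B2M lies on chr15:44711358-44718851 (plus strand), ERAP1 on chr5:96760810-96808100 (minus strand) and NLRC5 on chr16:56989485-57083531 (plus strand). HLA-B and HLA-C are near-identical over long stretches and share reads with other class I genes and pseudogenes, so the split of counts among heavy chain rows is uncertain.

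RefSeq promoters (GRCh38.p14, 250 bases before to 50 after the annotated start) were found for 7 of the 9 genes, all but HLA-E and NLRC5, and their starts can differ from the GENCODE gene ends above. The 250 upstream bases of 4 of them are shown because HLA-B, HLA-C and B2M were higher and TAP2 lower in sh#2 cells, as described below. Each is 5′ to 3′ on the gene's strand, and capitals mark matches, on either strand, to the motifs reported here, GAAANNGAA (an interferon-stimulated response element), GGGATTCCC and GGGAATTCC (NF-kB sites), GATTGG (the Y box, or inverted CCAAT box) and TGACGTCA and TGATGTCA (cyclic AMP response elements, like the X2 box).
HLA-B (chr6:31357180-31357429, minus strand): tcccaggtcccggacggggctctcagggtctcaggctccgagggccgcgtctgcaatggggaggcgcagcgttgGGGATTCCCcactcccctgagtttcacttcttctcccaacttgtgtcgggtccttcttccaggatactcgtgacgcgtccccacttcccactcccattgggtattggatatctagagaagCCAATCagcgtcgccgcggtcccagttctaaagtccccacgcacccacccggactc
HLA-C (chr6:31272093-31272342, minus strand): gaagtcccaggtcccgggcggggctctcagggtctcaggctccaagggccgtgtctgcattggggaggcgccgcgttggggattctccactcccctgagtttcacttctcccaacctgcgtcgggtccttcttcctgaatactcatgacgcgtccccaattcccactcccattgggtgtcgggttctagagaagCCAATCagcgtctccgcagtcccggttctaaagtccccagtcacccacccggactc
B2M (chr15:44711267-44711516, plus strand): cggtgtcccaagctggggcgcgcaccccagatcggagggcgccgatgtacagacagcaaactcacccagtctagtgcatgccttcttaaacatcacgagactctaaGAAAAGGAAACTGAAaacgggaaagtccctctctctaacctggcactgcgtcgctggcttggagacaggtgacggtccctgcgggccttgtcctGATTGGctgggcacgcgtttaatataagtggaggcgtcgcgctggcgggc
TAP2 (chr6:32838740-32838989, minus strand): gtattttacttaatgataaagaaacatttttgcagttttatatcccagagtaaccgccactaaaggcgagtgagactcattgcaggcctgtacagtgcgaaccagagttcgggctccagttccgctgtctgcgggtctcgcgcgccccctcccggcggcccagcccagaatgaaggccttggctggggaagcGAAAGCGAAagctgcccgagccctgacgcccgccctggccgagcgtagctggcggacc

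HLA-B and HLA-C both matched GATTGG on the opposite strand only, with its first base 56 bases before the start. Their own strand reads CCAATC there, a CCAAT box in direct and not inverted orientation. B2M held GATTGG on its own strand from base -50. Whether any of these matches is the Y box of its promoter was not tested. HLA-B also held GGGATTCCC from base -176. The pattern GAAANNGAA, a form of the interferon element, was matched from base -58 in TAP2. As overlapping copies it was matched from bases -144 and -138 in B2M, -20 and -14 in TAPBP and -133 and -127 in a TAP1 promoter. ERAP1 held it from base 3 after the start. HLA-B and HLA-C had no match to this pattern, and other spacings of the interferon element were not searched. Of all 35116 promoters in the RefSeq table, 15.1% held GATTGG, 8.11% GAAANNGAA, 0.384% GGGATTCCC, 0.231% GGGAATTCC, 1.85% TGACGTCA and 2.61% TGATGTCA.

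In cultured cells the heavy chains, B2M and tapasin were higher with sh#2 than with shCtrl, the transporter subunit TAP2 was lower, and with sh#1 only B2M of the 8 genes tested was called. With library totals in place of TMM scaling, the B2M and tapasin calls did not hold. HLA-B had 37.0, 50.02 and 47.2 normalized CPM with shCtrl, 38.9, 51.7 and 45.4 with sh#1 and 81.2, 91.3 and 107.6 with sh#2 (CPM is the count scaled to a common library total, here after TMM scaling). The sh#2 libraries were all above the other 6, and those of sh#1 and shCtrl overlapped. The log2 fold change of HLA-B was 1.06 in sh#2 (SE 0.125, q = 6.23e-10, edgeR) and 0.02 in sh#1 (SE 0.136, q = 0.944).

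HLA-C had 164.1, 146.4 and 153.6 normalized CPM in shCtrl, 162.4, 175.6 and 155.0 in sh#1 and 232.4, 239.4 and 244.5 in sh#2. Its log2 fold change was 0.63 in sh#2 (SE 0.0756, q = 9.34e-10, edgeR) and 0.08 in sh#1 (SE 0.0773, q = 0.486). HLA-E, a non-classical heavy chain that presents leader peptides of other class I molecules, had 45.3, 45.5 and 47.6 normalized CPM in shCtrl, 50.02, 49.1 and 50.7 in sh#1 and 68.6, 69.8 and 68.7 in sh#2. For both genes the sh#2 libraries did not overlap with any other library. HLA-E gave a log2 fold change of 0.58 in sh#2 (SE 0.117, q = 6.29e-05, edgeR) and 0.12 in sh#1 (SE 0.12, q = 0.546).

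With all listed class I heavy chain rows summed, which takes out the question of how reads were split among them, 6 rows held 879, 846 and 952 counts in shCtrl, 925, 893 and 1054 in sh#1 and 1228, 1316 and 1339 in sh#2. The sum was higher in sh#2 (log2 fold change 0.81, SE 0.0628, q = 2.86e-16, edgeR) and was not called in sh#1 (0.11, SE 0.0639, q = 0.238). HLA-B took 22.5% ± 3.66 (SD, n = 3) of the HLA-B and HLA-C counts in shCtrl, 21.6% ± 1.94 in sh#1 and 28.0% ± 2.37 in sh#2 cells. The sh#2 share lay above shCtrl in all 3 libraries, with a two-sided exact permutation p of 0.1, the smallest that 3 against 3 libraries allow (0.267 after Benjamini-Hochberg adjustment over 12 share comparisons).

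B2M, the light chain of every class I molecule, was higher with each hairpin under TMM scaling, and with library totals alone neither call held, as given below. It had 361.0, 412.1 and 410.8 normalized CPM in shCtrl, 446.5, 478.1 and 456.2 in sh#1 and 592.1, 466.8 and 469.0 in sh#2, so that every CDH11 KD library lay above every shCtrl library and sh#2 library 1 stood highest. This was a log2 fold change of 0.22 in sh#1 (SE 0.0734, q = 0.0252, edgeR) and 0.37 in sh#2 (SE 0.0738, q = 1.12e-04). The hairpins did not pass the test against each other for B2M (sh#1 against sh#2, log2 -0.15, 95% interval -0.295 to 0.00114, q = 0.144).

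**Figure D1:**
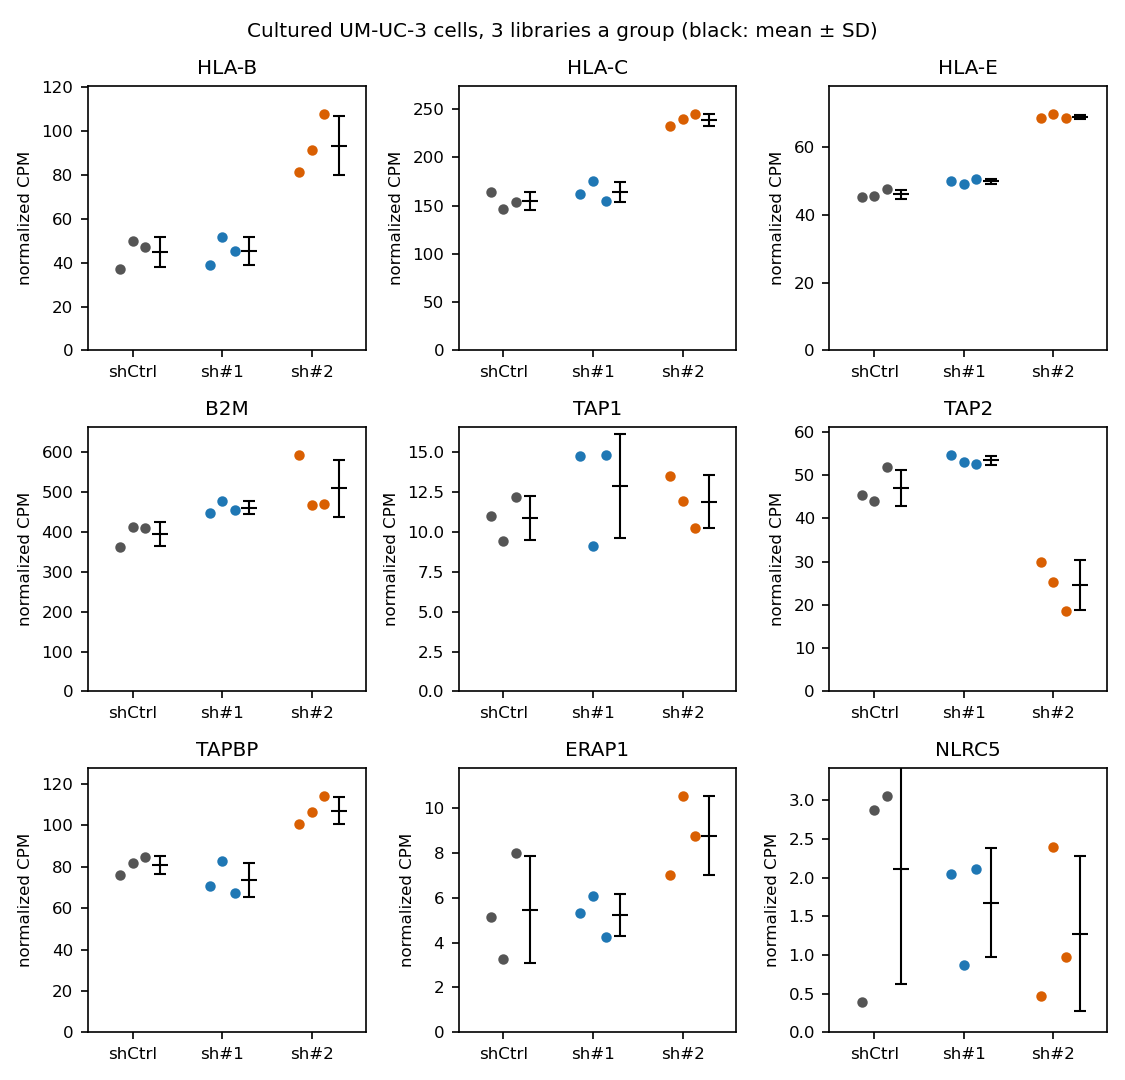
Normalized CPM of the 9 genes in cultured cells, 1 point a library, with the mean and SD of 3 libraries in black beside each group. The sh#2 libraries sit above all others for HLA-B, HLA-C, HLA-E and TAPBP and below all others for TAP2.

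Of the transporter subunits, TAP2 was lower in sh#2 cells and TAP1 was not called. TAP2 had 45.3, 43.9 and 51.8 normalized CPM in shCtrl, 54.5, 53.0 and 52.5 in sh#1 and 29.9, 25.3 and 18.5 in sh#2, from 115, 107 and 136, 133, 122 and 149, and 64, 53 and 38 counts. All sh#2 libraries were below all others, and all sh#1 libraries above all shCtrl libraries. The log2 fold change was -0.93 in sh#2 (SE 0.153, q = 1.46e-06, edgeR) and 0.18 in sh#1 (SE 0.128, q = 0.342). TAP1, with 21 to 42 counts a library, lay between 9.43 and 12.2 normalized CPM with shCtrl, 9.13 and 14.8 with sh#1, and 10.2 and 13.5 with sh#2, and these ranges overlapped. Its log2 fold change of 0.13 in sh#2 was not called (95% interval -0.374 to 0.629, q = 0.727, edgeR).

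TAP1 made up a larger share of the transporter counts in each sh#2 library than in any other library. The share was 18.8% ± 0.97 (SD, n = 3) in shCtrl, 19.3% ± 4.03 in sh#1 and 32.9% ± 2.34 in sh#2. The exact permutation p was 0.1 for sh#2 against shCtrl and for sh#1 against sh#2, again the smallest possible (0.267 after adjustment over 12). The Wilson 95% intervals of single libraries, which cover counting error only, lay between 22.7% and 48.3% for sh#2 and between 12.1% and 26.8% for shCtrl.

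TAPBP had 76.0, 81.6 and 84.6 normalized CPM in shCtrl, 70.9, 82.6 and 67.3 in sh#1 and 100.8, 106.6 and 114.0 in sh#2, with no overlap between sh#2 and the others. Against shCtrl the log2 fold change was 0.41 in sh#2 (SE 0.1, q = 8.77e-04, edgeR; 0.15, q = 0.227 with library totals) and -0.14 in sh#1 (SE 0.103, q = 0.364). ERAP1 had from 8 to 22 counts a library. Its log2 fold change of 0.66 in sh#2 missed the threshold (SE 0.328, q = 0.106), and without shCtrl library 3 it was 1.04 and past it (q = 0.0317). NLRC5 had from 1 to 8 counts a library in cells and was not tested.

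Of the 8 members tested in cells, 5 were called higher and 1 lower in sh#2 at q under 0.05, where 19.5% of all genes tested were called higher and 18.8% lower. In sh#1, B2M was the 1 member called higher, against 11.8% of all genes (10.6% were called lower). In CDH11 KD as 1 group, B2M was again the 1 member called higher (log2 fold change 0.30, SE 0.0974, q = 0.0435, edgeR), against 9.12% of all genes (8.32% were called lower). HLA-C (0.38, q = 0.0963), HLA-E (0.36, q = 0.0907), HLA-B (0.62, q = 0.258) and TAP2 (-0.25, q = 0.628) were not called there. The median log2 fold change of the 8 members was 0.49 in sh#2, 0.10 in sh#1 and 0.31 in CDH11 KD, where the medians of all genes tested lay within 0.01 of 0. The hairpin comparisons share the shCtrl libraries.

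The hairpins were also compared directly, with 3 libraries each and no shared control. HLA-B (log2 -1.04, SE 0.125, q = 3.17e-09, edgeR), HLA-C (-0.54, SE 0.0752, q = 9.73e-08), HLA-E (-0.46, SE 0.116, q = 0.00176) and TAPBP (-0.55, SE 0.102, q = 3.30e-05) were lower in sh#1 than in sh#2. TAP2 was higher in sh#1 (1.11, SE 0.15, q = 4.52e-08). These were 4 of 8 members lower and 1 higher, where 13.5% of all genes were called lower and 11.2% higher. ERAP1 differed by -0.76 without passing (q = 0.0888), and TAP1 by 0.13 (95% interval -0.359 to 0.612, q = 0.754).

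**Figure D2:**
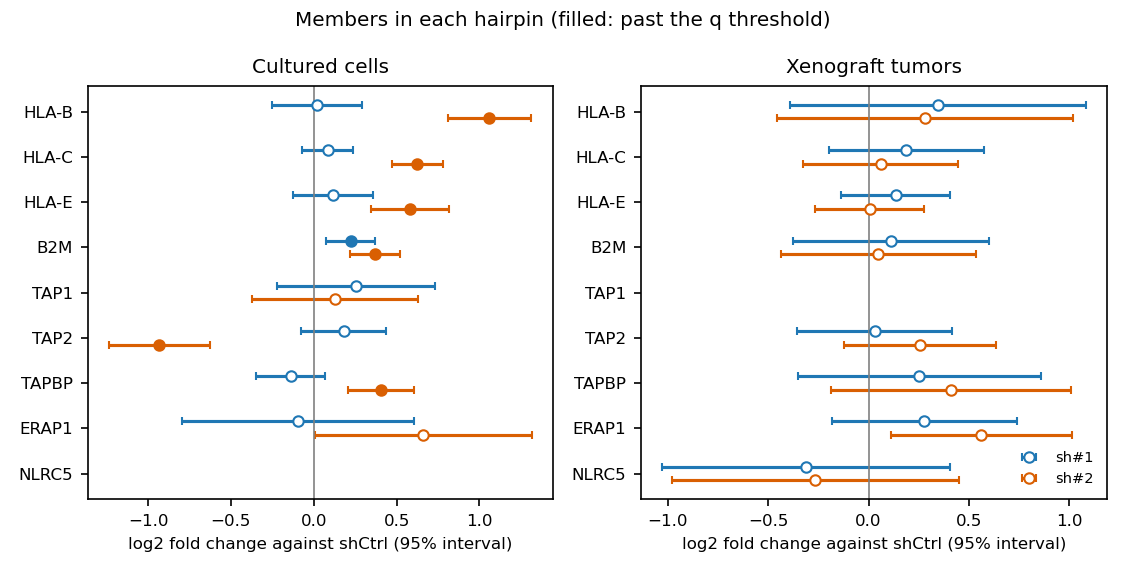
Log2 fold change of each member against shCtrl with its 95% interval from edgeR, for sh#1 and sh#2 in cultured cells (left) and tumors (right); filled points passed the q threshold of 0.05 in cells or 0.1 in tumors. In cells 6 sh#2 points and 1 sh#1 point are filled, and in tumors none.

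The size of these values in cells depended on how libraries were scaled. TMM factors were 0.897 to 0.905 in sh#2, 1.02 to 1.04 in sh#1 and 1.07 to 1.08 in shCtrl. With library totals alone, an alternative chosen after seeing the data, the median of all genes moved to -0.27 in sh#2 and -0.16 in CDH11 KD, and the share of calls that were higher fell to 20.8% from 50.8% in sh#2, to 38% from 52.6% in sh#1 and to 27.3% from 52.3% in CDH11 KD. Between the hairpins it went from 45.2% to 79.8%. HLA-B (0.80, q = 4.96e-07, edgeR), HLA-C (0.37, q = 7.24e-05), HLA-E (0.32, q = 0.022) and TAP2 (-1.19, q = 6.47e-09) kept their sh#2 calls. B2M (0.11, q = 0.223) and TAPBP (0.15, q = 0.227) lost theirs, and B2M lost its call in sh#1 (0.15, q = 0.135) and in CDH11 KD (0.13, q = 0.313). HLA-E lost its call between the hairpins (-0.27, q = 0.06445). On either scaling the 3 heavy chains, and B2M and TAPBP as well, stood above the median of all genes in sh#2. The pooled B2M call was also lost without any 1 of the 3 shCtrl libraries (q from 0.0958 to 0.21) and in 11 of 17 alternatives in all. In a fit with 3 groups, where the contrast was the mean of both hairpins, 5 members were called in CDH11 KD cells, where 33.4% of all genes were called in either direction.

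**Figure D3:**
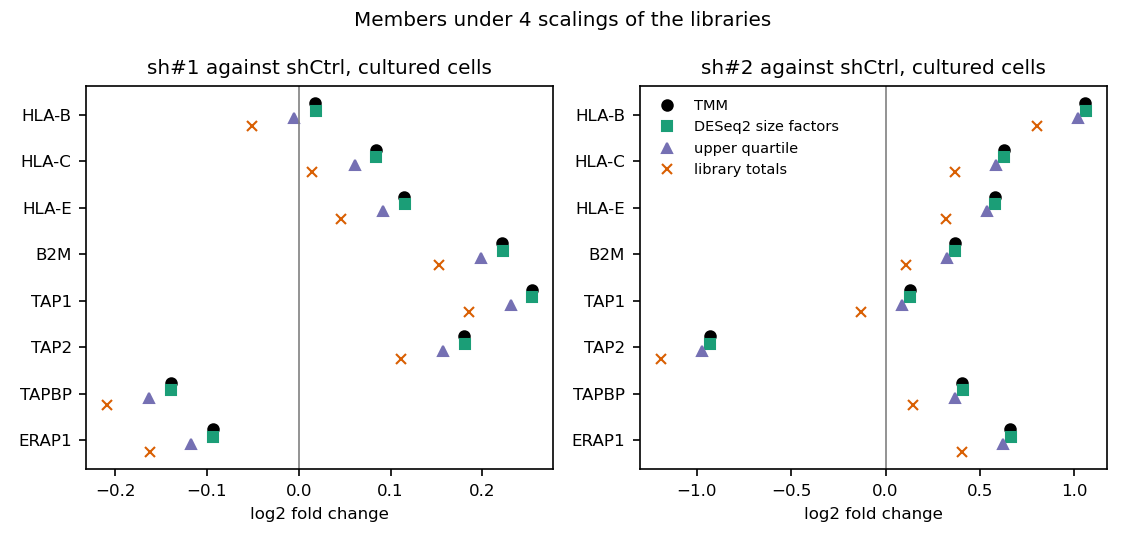
Log2 fold change of the 8 members tested in cultured cells against shCtrl under 4 scalings of the libraries, sh#1 on the left and sh#2 on the right. With library totals alone, B2M in sh#2 is at 0.11 and TAPBP at 0.15, and HLA-B stays at 0.80.

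In tumors 0 of the 8 members tested were called in any comparison at q under 0.1 in edgeR. At an unadjusted p under 0.05 there was 1 member in CDH11 KD, 0 in sh#1, 1 in sh#2 and 0 in sh#1 against sh#2, in both cases ERAP1. DESeq2 called 0 members in each of the 4. Of all genes tested, 1.51% were called in CDH11 KD, 1.48% in sh#1, 2.68% in sh#2 and 1.19% in sh#1 against sh#2 (with library totals alone, the share of calls that were higher went from 46% to 31.3%, from 52.2% to 41.8% and from 50.8% to 38% in the first 3). The member medians were 0.14, 0.16, 0.16 and 0.01 in these comparisons. In these bulk samples, fewer human cells and less RNA per cell cannot be told apart.

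HLA-B in tumors had 188.6, 130.9, 226.9, 440.2 and 240.5 normalized CPM in shCtrl, 360.7, 410.3, 247.1, 292.5 and 263.6 in sh#1 and 189.1, 425.8, 420.4, 177.1 and 280.7 in sh#2. The groups overlapped, and shCtrl tumor 4 was the highest of all 15. Its log2 fold change was 0.35 in sh#1 (SE 0.34, q = 0.765, edgeR) and 0.28 in sh#2 (95% interval -0.455 to 1.02, q = 0.785). B2M had 667.7, 492.2, 742.2, 1254 and 605.1 normalized CPM in shCtrl, 699.2, 999.2, 695.8, 843.9 and 825.2 in sh#1 and 611.3, 869.2, 1018, 699.0 and 693.2 in sh#2. Here too shCtrl tumor 4 stood above the rest, and the log2 fold changes were 0.11 in sh#1 (q = 0.904, edgeR) and 0.05 in sh#2 (q = 0.955).

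HLA-C ranged from 264.0 to 610.1 normalized CPM in shCtrl (median 343.2), from 372.7 to 535.8 in sh#1 (median 407.8) and from 314.2 to 490.3 in sh#2 (median 414.4). HLA-E ranged from 146.1 to 216.6, from 165.5 to 252.5 and from 153.5 to 221.5. The log2 fold change of HLA-C was 0.19 in sh#1 and 0.06 in sh#2, and that of HLA-E 0.13 and 0.00 (q from 0.759 to 0.995 for the 4, edgeR). The 95% intervals in sh#2 were -0.329 to 0.448 for HLA-C and -0.268 to 0.278 for HLA-E, and without shCtrl tumor 4 HLA-C was at 0.28. The difference between cells and tumors was not tested, since the tables were counted and scaled apart. The sum of 11 class I heavy chain rows gave 0.15 in sh#1 (q = 0.87) and 0.13 in sh#2 (q = 0.865).

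ERAP1 had 18.5, 20.6, 22.8, 23.1 and 29.1 normalized CPM in shCtrl tumors, 16.6, 32.8, 19.1, 39.1 and 23.2 in sh#1 and 39.8, 40.3, 25.9, 32.0 and 28.6 in sh#2, from 6 to 36 counts a tumor. The sh#2 tumors lay mostly above the shCtrl tumors, with overlap at shCtrl tumor 5. The log2 fold change was 0.56 in sh#2 (SE 0.222, q = 0.218, edgeR) and 0.28 in sh#1 (SE 0.227, q = 0.693), and no call was made. TAP2 lay between 31.3 and 41.0 normalized CPM with shCtrl, 25.0 and 43.5 with sh#1, and 29.9 and 60.5 with sh#2. Its log2 fold change in sh#2 tumors was 0.26 (95% interval -0.121 to 0.637, q = 0.587). In sh#2 cells it was -0.93 (95% interval -1.24 to -0.626), and the difference between the systems was not tested.

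TAPBP had from 4 to 26 counts a tumor, with a log2 fold change of 0.25 in sh#1 (q = 0.805, edgeR) and 0.41 in sh#2 (q = 0.585). NLRC5, the transactivator that was near 0 in cells, had from 3 to 24 counts a tumor, and its log2 fold change was -0.31 in sh#1 (q = 0.796) and -0.27 in sh#2 (q = 0.805). TAP1 had 0 counts in 7 of the 15 tumors and at most 3 in the others. A count of 0 allows up to 3 counts, or from 2.96 to 7.23 CPM at these totals. Within a tumor TAP1 made up 1.78% ± 1.74 (SD, n = 5) of the TAP1 and TAP2 counts in shCtrl, 1.08% ± 1.48 in sh#1 and 2.51% ± 2.65 in sh#2, where cells of the same groups had 18.8%, 19.3% and 32.9%. The 2 tables came from different mapping programs, and their part in this gap was not tested.

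**Figure D4:**
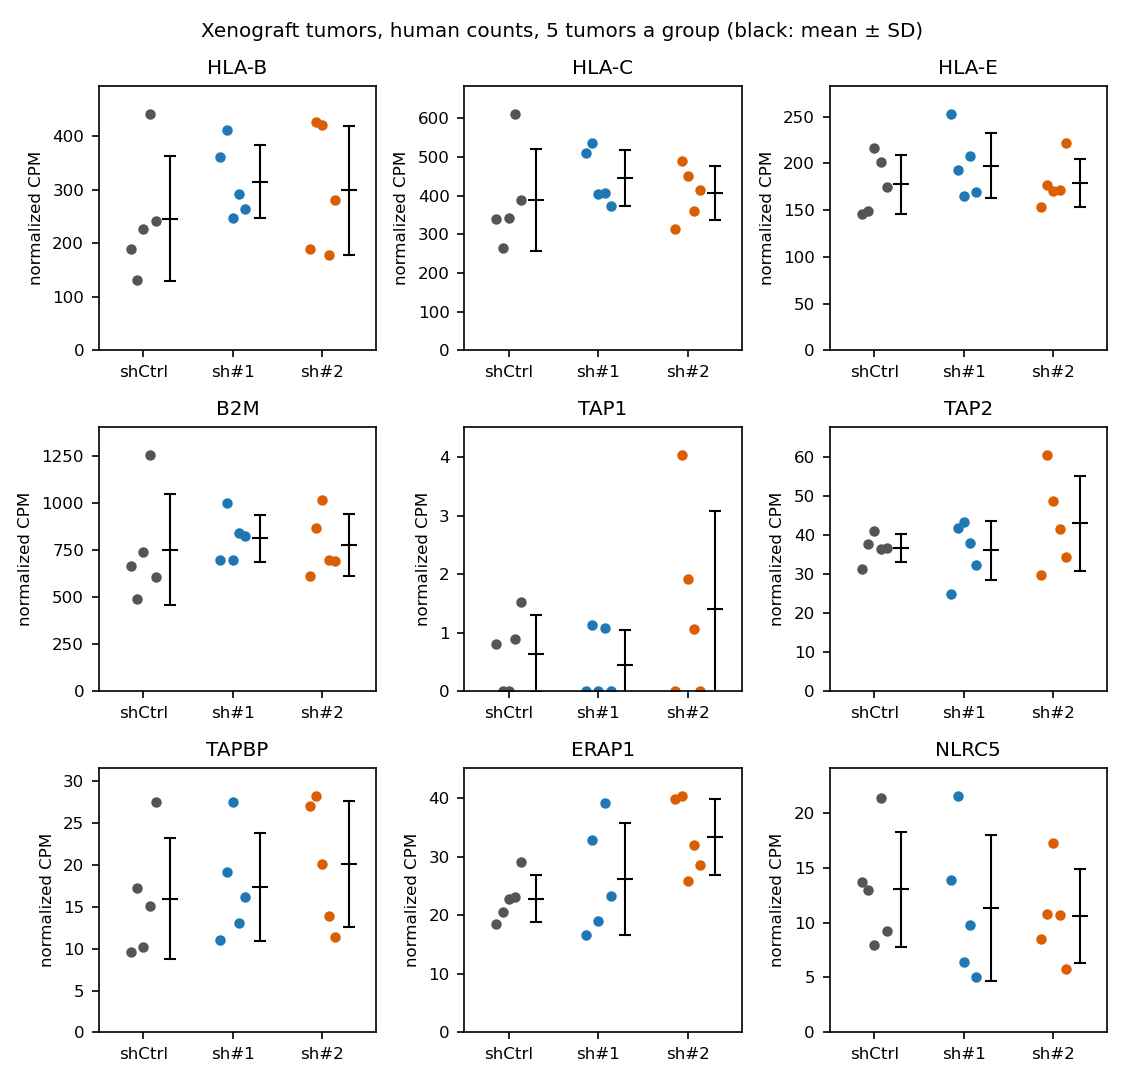
Normalized CPM of the 9 genes among human counts of the xenograft tumors, 1 point a tumor, with the mean and SD of 5 tumors in black. The groups overlap for every gene, and shCtrl tumor 4 is the highest point for HLA-B (440.2), HLA-C (610.1) and B2M (1254).

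No group difference was called, but tumors with more B2M had more HLA-B and HLA-C. Over the 15 tumors, log2(normalized CPM + 1) of B2M and HLA-B had a Pearson r of 0.849 (permutation p = 8e-05, adjusted 4.8e-04 over 6 correlations) and a Spearman rho of 0.829 (permutation p = 1.8e-04, adjusted 0.00108). Without shCtrl tumor 4 and sh#2 tumor 3, the tumors farthest from the median of B2M, r was 0.81. Within the groups, which are also the library mixes, r was 0.941 in shCtrl, 0.51 in sh#1 and 0.873 in sh#2, with 5 tumors in each. HLA-C gave an r of 0.822 (permutation p = 2.3e-04, adjusted 6.9e-04) and a rho of 0.75 (permutation p = 0.00192, adjusted 0.00576), with 0.756 without the same tumors and 0.933, 0.271 and 0.831 within groups. The r was lowest in sh#1 for both genes, and the difference between groups was not tested. Among the shCtrl tumors, tumor 4 was highest also in the summed level of 27 interferon-induced genes (1665 normalized CPM), of mouse leukocyte markers (5628 CPM of mouse counts) and of mouse class I genes (3961), and the part of these in the human values was not tested. B2M did not pass with HLA-E (r 0.338), NLRC5 (0.463), TAP2 (0.339) or ERAP1 (0.171), with adjusted permutation p from 0.163 to 0.543 and rho from 0.207 to 0.429.

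**Figure D5:**
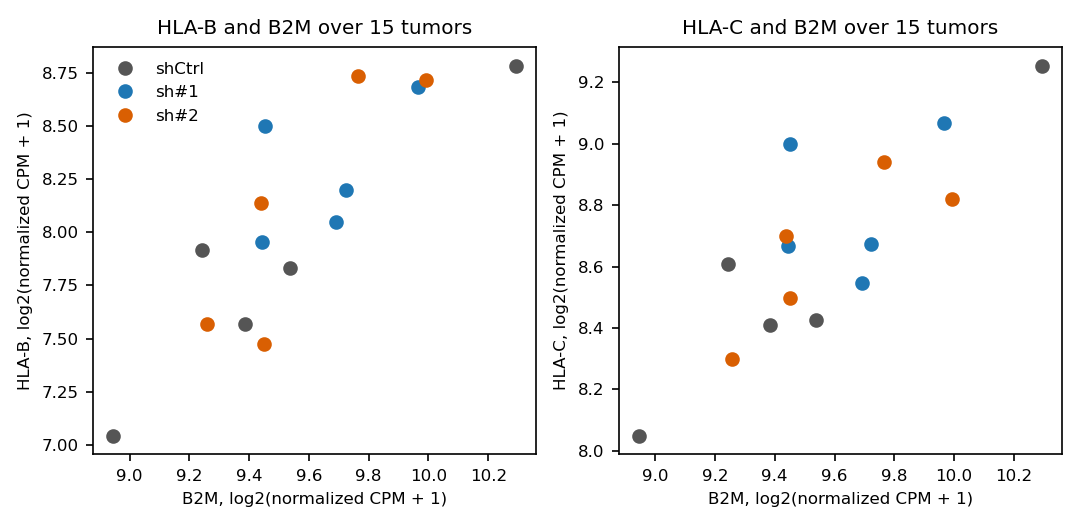
HLA-B (left) and HLA-C (right) against B2M in the 15 xenograft tumors, both as log2(normalized CPM + 1), coloured by group. The points rise together (r 0.849 and 0.822), and the 3 groups are mixed along the slope.

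Genes that work beside the members were read from fixed lists. Among 10 peptide loading and trimming partners in cells, 3 were higher and 1 lower in sh#2, and 0 were higher and 3 lower in sh#1. Over all genes 19.5% were higher and 18.8% lower with sh#2, against 11.8% and 10.6% with sh#1. These shares hold as background for the lists below too, in cells and under TMM scaling. In sh#2 these were CANX, the calnexin that folds new heavy chains (log2 fold change 0.34, q = 2.03e-06, edgeR), PRKCSH (0.69, q = 2.63e-06) and GANAB (0.23, q = 0.00357), the glucosidase II subunits, and LNPEP, an aminopeptidase of endosomes (-0.80, q = 0.00321). In sh#1 they were the loading complex chaperone CALR (-0.48, q = 0.00442), its partner PDIA3 (-0.48, q = 7.21e-05) and the general chaperone HSPA5 (-0.22, q = 0.00367). The medians of the list were 0.15 in sh#2 and -0.18 in sh#1. Between the hairpins, 6 of the 10 were lower in sh#1 and 1 (LNPEP) higher, with a median of -0.44. Of all genes, 13.5% were lower and 11.2% higher there. With library totals alone, PRKCSH (0.43, q = 0.00228) and LNPEP (-1.06, q = 1e-04) were still called in sh#2, CANX (0.08, q = 0.242) was not, GANAB turned to -0.03 (q = 0.756) and the list's median turned to -0.11. The median of all genes in sh#2 was -0.27 on that scaling.

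In tumors the same list had 1 gene higher and 2 lower in CDH11 KD. Of all genes tested in tumors, 1.51% were called in either direction in CDH11 KD, 1.48% in sh#1 and 2.68% in sh#2. PDIA3 was higher (log2 fold change 0.59, q = 0.053, edgeR), and GANAB (-0.45, q = 0.0264) and PRKCSH (-0.52, q = 0.013) were lower. In sh#2 tumors PDIA3 was at 0.58 (q = 0.0911), GANAB at -0.57 (q = 0.0068) and PRKCSH at -0.47 (q = 0.0569). GANAB and PRKCSH were opposite in sign to their called values in sh#2 cells, where GANAB was at -0.03 with library totals alone. In sh#1 tumors PRKCSH alone of the 10 was called (-0.57, q = 0.0207).

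Of 7 genes of the immunoproteasome, its assembly and the activators, PSME3 was lower in sh#2 (log2 fold change -0.74, q = 3.21e-07, edgeR), PSME1 lower (-0.33, q = 0.0165) and POMP higher (0.20, q = 0.029) in sh#1, and the catalytic PSMB8, PSMB9 and PSMB10 were called in 0 comparisons. Between the hairpins PSME1 (-0.55, q = 6.40e-05) and PSME2 (-0.25, q = 0.0274) were lower and PSME3 higher (0.64, q = 1.57e-05) in sh#1. Of the 3 standard catalytic subunits, PSMB7 was higher with each hairpin (0.51, q = 4.95e-08 in sh#1 and 0.48, q = 1.45e-07 in sh#2), and PSMB5 (-0.28, q = 0.00383) and PSMB6 (-0.21, q = 0.00675) were lower in sh#2. Of 5 cytosolic peptidases, NPEPPS was lower in sh#1 (-0.26, q = 0.0408) and higher in sh#2 (0.29, q = 0.0132). With library totals alone, PSMB7 was still called in sh#2 (0.22, q = 0.00735) and NPEPPS was not (0.03, q = 0.841). POMP lost its call in sh#1 (0.13, q = 0.167) and was lower in sh#2 (-0.18, q = 0.0274), and PSME2 lost its call between the hairpins (-0.06, q = 0.621). In tumors 0 genes of these 3 lists were called in edgeR, with from 0 to 1 gene a list at an unadjusted p under 0.05 in each comparison.

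Among 13 factors of class I promoters, RELA, an NF-kB subunit, was higher in sh#2 cells (log2 fold change 1.03, q = 2.80e-13, edgeR) and higher there than in sh#1 (sh#1 against sh#2 -0.79, q = 1.86e-09). EZH2, a histone methyltransferase that can silence class I genes, was also higher in sh#2 (0.57, q = 1.80e-05). RFXAP, a subunit of the X box factor RFX (-1.17, q = 0.0123), the cyclic AMP response factor ATF1 (-0.495, q = 0.0113) and NFYA, of the Y box factor (-0.66, q = 0.0319), were lower in sh#2, and NFYA was lower in sh#1 too (-0.88, q = 0.00667). The list had 2 of 13 higher and 3 lower in sh#2, beside 19.5% and 18.8% of all genes, and 0 and 1 in sh#1. With library totals alone it had 2 and 4 in sh#2, where 956 of all genes were higher and 3641 lower. In tumors 0 of 11 tested were called in edgeR, with 1 or 2 at an unadjusted p under 0.05.

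Of 11 interferon receptor and signalling genes tested in cells, IFNGR2 (log2 fold change 0.64, q = 4.52e-04, edgeR), IFNAR1 (0.47, q = 0.0101) and JAK1 (0.31, q = 0.00708) were higher in sh#2, and IFNAR2 (-0.62, q = 0.0192), JAK2 (-0.96, q = 0.011) and IRF9 (-0.94, q = 0.0412) lower in sh#1. Of 27 interferon-induced genes, 14 passed the filter in cells. ISG20 and SP100 were higher with each hairpin (1.19 and 0.56 in sh#2, q = 6.85e-05 and 1.05e-04, and 0.81 and 0.32 in sh#1, q = 0.0111 and 0.041), TRIM21 was higher in sh#2 (1.32, q = 0.00598), and GBP2 (-1.48, q = 0.0166) and DTX3L (-0.69, q = 0.00367) were lower in sh#1. UBE2L6 was lower in sh#1 than in sh#2 (-0.95, q = 0.00193) and called against shCtrl with neither. The median of the list was 0.11 in sh#2 and -0.15 in sh#1, its summed level lying between 445.5 and 450.7 normalized CPM with shCtrl, 376.2 and 436.4 with sh#1, and 476.4 and 500.1 with sh#2. With library totals alone, IFNAR1 (0.21, q = 0.256) and JAK1 (0.05, q = 0.695) lost their sh#2 calls, IFNGR2 was at 0.38 (q = 0.0313) and SP100 at 0.30 (q = 0.0318) in sh#2, and SP100 lost its sh#1 call (0.25, q = 0.124). The median of the induced list turned to -0.15 in sh#2, with 3 higher and 4 lower. On that scaling the median of all genes in sh#2 was -0.27, with 956 higher and 3641 lower. In tumors 0 of 22 induced genes and 0 of 10 signalling genes were called in edgeR, with from 0 to 2 genes a list at an unadjusted p under 0.05.

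Of 10 other class I and class I-like genes, 4 were tested in cells and 3 in tumors, and 0 were called in any comparison in edgeR, with 1 at an unadjusted p under 0.05, between the hairpins in cells. Of 6 genes of class I turnover, TMEM129, a ubiquitin ligase for class I heavy chains, was lower in sh#2 in cells (log2 fold change -0.76, q = 0.0116, edgeR) and in tumors (-0.87, q = 0.0133). SEL1L, of the retrotranslocation complex, was lower in sh#1 cells (-0.41, q = 0.0265). With both hairpins as 1 group in cells, PSMB7 (0.50, q = 5.03e-04), EZH2 (0.42, q = 0.0323), ISG20 (1.00, q = 0.00737) and SP100 (0.44, q = 0.0226) were higher and NFYA lower (-0.77, q = 0.0264) among the genes of these lists. With library totals alone EZH2 (0.25, q = 0.157) and SP100 (0.28, q = 0.127) lost these calls.

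The genes whose pattern over the 9 cell libraries was most like the mean of the members (of standardized log2 normalized CPM) were PHF21A, with a Pearson r of 0.98, H2BC5 (0.974), PATL1 (0.97), OBI1 (0.969) and DPYSL2 (0.965). Their log2 fold changes ran from 0.59 (PATL1) to 1.23 (H2BC5) in sh#2 and from 0.04 to 0.29 in sh#1. Of the members, HLA-E was closest to that mean (r 0.965) and TAP2 ran against it (r -0.755). Over the 15 tumors, 4 of the 5 most like genes were EXOG (0.816), SAMD9 (0.76), GJA3 (0.754) and LGALS3BP (0.752), and HLA-B was the closest member (0.9). All values of a point share a library and its scaling, and the members enter the mean they are compared with.

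The mouse counterparts were counted in the host tissue of the same tumors. The 8 mouse class I genes (H2-K1, H2-D1, B2m, Tap1, Tap2, Tapbp, Erap1 and Nlrc5) together had 1536 to 3961 CPM of mouse counts with shCtrl, 1428 to 7708 with sh#1 and 934.7 to 2856 with sh#2. The highest tumor was sh#1 tumor 1, where 30.0% of all counts were mouse, against 10.4% to 18.8% in the other 14. With sh#1 tumor 1 and shCtrl tumor 4 left out, an alternative chosen after seeing the data, 0 human members were called. The log2 fold change of HLA-B was then 0.61 in sh#2 and 0.63 in sh#1, against 0.28 and 0.35 with all tumors. The shCtrl tumor left out had the highest HLA-B of all tumors, so leaving it out raises both values. With the mouse to human ratio of each tumor in the model, 0 members were called as well.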

How the data were processed

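The authors deposited 1 table of counts per gene for cultured cells and 1 each for the human and mouse reads of the tumors. Per the labels, single reads of 75 bp were sequenced. For the cells the authors used CLC Genomics Workbench to trim and RaNAseq to map, and for the tumors trim galore and HISAT2, on hg38. The counting tool, annotation and separation of human from mouse reads are not given in the sources used here. Reads from near-identical heavy chain genes may have been split or dropped by this counting.

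The members and gene lists were chosen with earlier results of these data known. Deposited counts were filtered (filterByExpr), scaled by TMM and fitted with robust edgeR 4.0.16 quasi-likelihood tests in R 4.3.3, with Benjamini-Hochberg q over all genes tested, at 0.05 in cells and 0.1 in tumors. CDH11 KD against shCtrl was a fit of 2 groups, and single hairpins came from a fit of 3. Named genes were the 9 members, listed genes past a threshold and the 5 genes most like the members. DESeq2 1.42.0 was an alternative, among up to 17 in cells and 25 in tumors. Permutations (scipy 1.17.1) used 100000 resamples. The fits were tested on simulated data. Wilson intervals and limits at a count of 0 cover counting error only, and edgeR's intervals also the spread between libraries. Results for 1 promoter motif are not reported here. Replicates differed by at least 1.3 times the sampling noise (chi-square per degree of freedom), so each was counted. The 13 cell rows without values were not used. Samples were not paired by number in the main fits. The correlation was over 0.1 in 0 of 9 same-numbered pairs in cells and 2 of 15 in tumors. In cells its mean was 0.0234 in same-numbered pairs and -0.0117 in others, so this cutoff does not exclude pairing there.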

Additional observations from a re-analysis of the deposited data

Results flagged for a closer look

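In cultured cells the effects of the hairpins on 5 members differed by a direct test, an edgeR contrast of 3 sh#1 against 3 sh#2 libraries. Of all genes tested, 13.5% were called lower and 11.2% higher in that contrast. The effect of sh#1 minus that of sh#2, on the log2 scale, was -1.04 for HLA-B, -0.54 for HLA-C, -0.46 for HLA-E, -0.55 for TAPBP and 1.11 for TAP2. The HLA-E difference was past the threshold in 15 of 16 alternatives and the others in 16 of 16.

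Single tumors stood far from the rest of their group in 3 of 36 groups of 5 tumors examined, and chance sets about 1 in 20 such groups apart. The 36 groups share the same tumors and are not independent, so that rate is only a rough guide. The summed level of the interferon-induced genes was 2080 normalized CPM in sh#1 tumor 2, against 1135 to 1351 in the other sh#1 tumors. The summed mouse class I level was 3961 CPM of mouse counts in shCtrl tumor 4, against 1536 to 2141 in the other shCtrl tumors, and 7708 in sh#1 tumor 1, against 1428 to 2795 in the other sh#1 tumors. The last value comes from the mouse counts, which the human comparisons do not use, and lay above the shCtrl range of 1536 to 3961. No member in human counts had a tumor that stood apart by the same rule. Even so, shCtrl tumor 4 was the highest of all tumors in HLA-B, HLA-C and B2M.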

How the results depend on the processing

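In cells the 6 calls in sh#2 and the 5 between the hairpins stayed within 1.5 times under every alternative run (4 and 4 with library totals), and in tumors 0 members were called under any. The 1 call in CDH11 KD cells became 0 with upper quartile scaling, with at least 10 counts in every library and with library totals, 5 in the fit of 3 groups, and from 0 to 2 with 1 library left out. It was 0 without shCtrl library 1, 2 or 3, sh#1 library 2 or sh#2 library 1, 2 or 3, and 2 without sh#1 library 1 or 3. The 1 call in sh#1 cells became 0 with upper quartile scaling, DESeq2 and library totals, and from 0 to 1 with 1 library left out (0 without shCtrl library 1, sh#1 library 2 or sh#1 library 3). With the replicate block the calls in CDH11 KD and sh#1 cells were 0 and 0, and TAP2 in sh#1 tumors was -0.0187. In cells 7 of 9 libraries correlated best with their own number, as did 4 of 15 tumors. Whether numbers pair the cell libraries was not settled. The cause of these moves was not tested.

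Of 64 member results, values turned sign under an alternative 45 times, of which 0 were past a threshold. With upper quartile scaling, HLA-B in sh#1 cells was -0.00535 and HLA-E in sh#2 tumors -0.0217. With library totals, HLA-B in sh#1 cells was -0.0509, TAPBP in CDH11 KD cells -0.0183, TAP1 in sh#2 cells -0.13, B2M between hairpins in cells 0.0426, TAP2 in sh#1 tumors -0.00478 and HLA-E in sh#2 tumors -0.028. HLA-E in sh#2 tumors was also -0.033 with no filter, -0.00387 with at least 10 counts and -0.0535 with the mouse to human ratio as covariate, which gave -0.0234 for HLA-C in sh#2 and 0.0208 for NLRC5 between hairpins. DESeq2 gave 0.00124 for NLRC5 there. With 1 library left out, values ran from -0.102 to 0.115 for HLA-B and from -0.346 to 0.291 for ERAP1 in sh#1 cells. In tumors they ran from -0.0406 to 0.34 (CDH11 KD), -0.0101 to 0.374 (sh#1), -0.0747 to 0.306 (sh#2) and -0.0186 to 0.184 (between hairpins) for B2M, -0.0401 to 0.097 for TAP2 in sh#1, -0.0527 to 0.279 for HLA-C and -0.077 to 0.0835 for HLA-E in sh#2, and -0.0768 to 0.231 for HLA-B and -0.487 to 0.237 for NLRC5 between hairpins.

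Over all genes, calls in CDH11 KD cells were 1719, or 3291 in the fit of 3 groups and 963, 974 and 882 without shCtrl library 1, 2 and 3. DESeq2 called 1346 in place of 2209 in sh#1 cells and 1533 in place of 2431 between hairpins. Calls in tumors were 139 in CDH11 KD (276 with no filter, 227 in the fit of 3 groups and 63 with the covariate). They were 84 without sh#1 tumor 1 and shCtrl tumor 4, the 2 tumors apart in mouse class I level, with sh#1 tumor 2 kept. Without shCtrl tumor 1, 2, 4 and 5 they were 48, 64, 74 and 399. In sh#1 tumors they were 136 (243 with no filter, 89 with at least 10 counts, 79 without the 2 tumors, 69, 89, 215 and 287 without shCtrl tumor 1, 2, 3 and 5, and 80 without sh#1 tumor 5). In sh#2 tumors they were 246 (150, 142 and 552 without shCtrl tumor 1, 4 and 5, and 141 and 126 without sh#2 tumor 1 and 2). Between hairpins in tumors they were 109 (173 with no filter, 63 with at least 10 counts, 71 without the 2 tumors, 67, 61 and 62 without sh#1 tumor 1, 2 and 5, and 50, 44 and 57 without sh#2 tumor 1, 2 and 3). Low counts limit TAP1, NLRC5 and ERAP1 in both systems, and TAPBP in tumors.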
